A study of Mus musculus with 13 samples.

Results

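The 50 genes described here drive mitosis: they encode the kinases, cyclins, spindle motors, kinetochore and condensin subunits and cytokinesis factors that carry a cell from the end of G2 through division. They are a list of known mitosis and spindle genes taken by name, put together with earlier results of these data known. The names were not filtered by a measured value. For each gene the probe set annotated to that symbol alone was taken, and the one with the highest mean where a gene had more. A value was obtained for 49 of the 50 genes, among 19938 genes measured in this way, and all 49 entered the tests on 16721 genes. The exception was Ccnb1, for which no probe set was named by that symbol alone in the annotation used here. Top2a had 2 probe sets, and all other members had 1.

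The samples, from mice on a 129/SVJ genetic background, are labelled enterocytes, the absorptive cells of the intestinal lining. They held other cells too. On the 12 arrays compared below, the goblet cell gene Muc2 had log2 values of 11.04 to 13.19 and the Paneth cell gene Lyz1 of 11.76 to 13.17. The values therefore do not belong to absorptive cells alone. Csnk1a1, the gene of casein kinase Iα (CKIα), had been deleted in the gut. Mice were heterozygous for that deletion (CKIα Het) or homozygous (CKIα KO), and both kinds were also crossed with p53 KO mice or with p21 KO mice. This gave 6 groups of 2 arrays each: CKIα Het, CKIα KO, CKIα Het/p21 KO, CKIα KO/p21 KO, CKIα Het/p53 KO and CKIα KO/p53 KO. All groups, the controls included, thus carried at least 1 deleted copy of Csnk1a1. The labels call the arrays of a group biological replicates, and give neither the age of the mice nor the promoter behind the gut deletion, nor whether RNA was pooled. A 13th array has labels that disagree with each other on its genotype and entered no comparison.

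Entry into mitosis depends on the kinase Cdk1 bound to A- and B-type cyclins, and the genes of mitosis are switched on together in G2, by the transcription factors B-Myb and FoxM1. When p53 is active, it induces p21, which inhibits cyclin-dependent kinases. The DREAM complex, which contains RB-family proteins, then holds the promoters of these genes in a repressed state. It binds them through a short element near the start of transcription, the cell cycle genes homology region (CHR), while the activator NF-Y binds CCAAT boxes in the same promoters. In the intestine, cell division takes place in the crypts, and the enterocytes of the villi have left the cell cycle.

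Values are log2 intensities, and the median over all probe sets lay between 4.96 and 5.12 on the 13 arrays. Differences were tested with limma, a linear model fitted to the 12 arrays of the 6 groups at once, and a gene was called when its adjusted p was under 0.05. A standard error (SE) of a difference rests on the spread between the 2 arrays of a group, pooled over the 6 groups. Limma then draws it toward a value shared by all genes. The 2 CKIα KO/p21 KO arrays stood widest apart over the members, by a median log2 of 0.96. That gap widens the intervals and raises the p-values of every comparison, also of those that do not hold that group. Csnk1a1 itself lay between 10.44 and 10.80 on these 12 arrays. The labels do not give the deleted exons, so this level checks no genotype. Xist, transcribed from an inactive X, ranged from 3.15 to 3.94 on the arrays numbered 1 and from 8.91 to 10.1 on those numbered 2, so that each group held 1 array of each kind.

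The promoters of the mitosis genes were examined for the letters of the CHR and of the NF-Y box, since the members moved together. RefSeq windows from 250 bases before to 50 bases after the start of transcription (GRCm38.p6) were at hand for 42 of the 50 members, with 45 windows in all. Cdc25c, Ccna2, Tpx2, Foxm1, Smc4, Incenp, Aurkb and Kif20a were not matched to a window. The stretches below belong to 5 of the 6 members with the smallest p for CKIα loss without p53 among those holding CHR letters. Each is the 100 bases before the start of transcription, read in the direction of transcription, with CHR letters (TTTGAA or TTTAAA, or TTCAAA when they lie on the other strand) and CCAAT in capitals.
Plk1 (chr7:122159335-122159434, + strand): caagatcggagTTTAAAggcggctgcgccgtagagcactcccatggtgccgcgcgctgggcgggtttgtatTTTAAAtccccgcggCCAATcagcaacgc
Ncapg2 (chr12:116405336-116405435, + strand): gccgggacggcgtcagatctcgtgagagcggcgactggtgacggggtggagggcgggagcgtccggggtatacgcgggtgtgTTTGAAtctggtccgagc
Ncapg (chr5:45669825-45669924, + strand): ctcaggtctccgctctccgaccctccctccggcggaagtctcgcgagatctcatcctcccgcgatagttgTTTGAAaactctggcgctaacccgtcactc
Ttk (chr9:83834589-83834688, + strand): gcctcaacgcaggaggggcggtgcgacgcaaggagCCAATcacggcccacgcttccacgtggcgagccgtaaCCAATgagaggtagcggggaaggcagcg
Aurka (chr2:172370571-172370670, - strand): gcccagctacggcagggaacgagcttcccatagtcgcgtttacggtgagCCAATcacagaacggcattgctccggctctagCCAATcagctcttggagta
Plk1 held TTTAAA at 89 and 29 bases before the start and CCAAT at 14 bases before it. Ncapg2 and Ncapg held TTTGAA at 18 and 30 bases before the start. Ttk and Aurka held a pair of CCAAT boxes each, and their CHR letters lay after the start. Anln, the member of the 6 whose stretch is not printed, held neither CHR letters nor CCAAT in the 250 bases before its start.

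For Ttk, Aurka and Anln the CHR letters just after the start are shown, again in capitals, with 10 bases on either side.
Ttk (chr9:83834686-83834711, + strand), from 8 bases after the start: gcggggaaatTTCAAAcgtgtttccg
Aurka (chr2:172370538-172370563, - strand), from 18 bases after the start: tgactcctatTTTAAAaggagaacct
Anln (chr9:22389170-22389195, - strand), from 22 bases after the start: ggcgctgaaaTTCAAAtTTTGAAcgg
The position given is that of the first capital letter. In Anln 2 matches lie close together, TTCAAA at 22 and TTTGAA at 29 bases after the start.

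Over all members, TTTGAA on either strand was found in 32 of 45 windows (71.1%), against 17.9% of all 32851 RefSeq windows of the same length. TTTAAA, which reads the same on both strands, was found in 9 (20%), against 13.2%. CCAAT on either strand was found in 33 windows (73.3%), against 37.4%, and 30 windows (66.7%) held CHR letters of either kind together with CCAAT, against 10.7%. By contrast TTCCCGC on either strand, the letters of an E2F site, was in 2 windows (4.44%), against 4.6%. Over the 16446 windows of genes tested on the arrays, TTTGAA was in 12.9%, TTTAAA in 9.75% and CCAAT in 36.8%. There, CHR letters together with CCAAT were in 8.06% and TTCCCGC in 7.01%. Each motif was counted on its own, whether or not it overlapped another. A match of letters is a description of the sequence and does not show that a factor binds there.

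**Figure D1:**
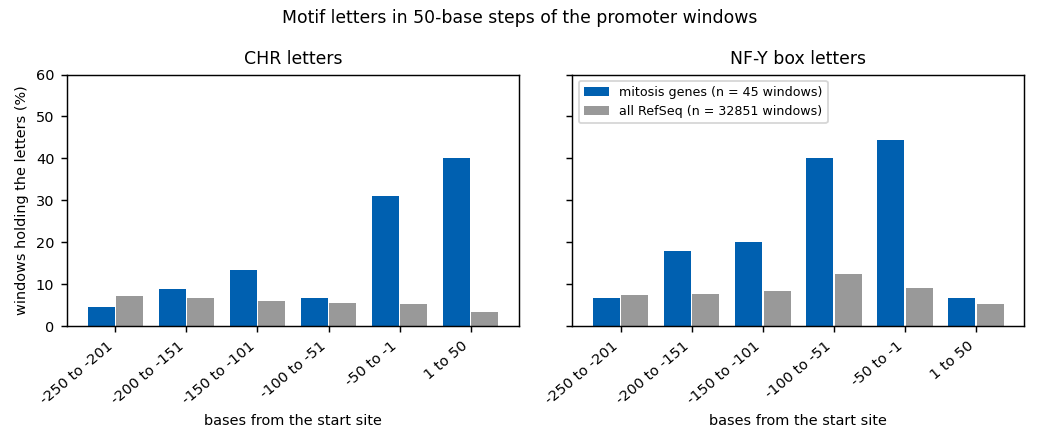
Share of promoter windows (%, vertical axis) that hold CHR letters (left) or CCAAT (right) in steps of 50 bases from the start of transcription (horizontal axis), for the 45 windows of mitosis genes and for all 32851 RefSeq windows. CHR letters of the mitosis genes lay mostly in the 50 bases before the start (31.1% of windows, against 5.22%) and the 50 after it (40%, against 3.37%), and CCAAT in the 100 bases before it (40% and 44.4% in the 2 steps, against 12.5% and 9.03%).

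The 31 measured members with CHR letters in a window had a median log2 difference on CKIα loss of 1.01 without p21 and 1.05 without p53, and the 10 members with a window but no such letters (Bub1, Cdc25b, Kif18a, Mad2l1, Mybl2, Ncaph, Nuf2, Nusap1, Pttg1 and Sgo1) had medians of 0.97 and 1.16.

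CKIα loss was followed by higher levels of the mitosis genes where p53 or p21 was also missing, and no member was called higher or lower where both were present. Without p53, 33 of 49 members (67.3%) rose in CKIα KO against CKIα Het, among 11.0% of all genes tested, and 0 fell, among 6.82% of all genes. Without p21, 8 members (16.3%) rose, among 1.46% of all genes, and 0 fell, among 0.514%. The median log2 difference over the 49 members was 1.08 without p53 (2.11-fold, range 0.43 to 1.62) and 1.03 without p21 (2.04-fold, range 0.15 to 1.69), while the median over all genes was -0.06 and -0.01. With p53 and p21 present it was 0.12 (range -0.44 to 0.48), beside 0.02 over all genes. The median without p21 moved with either CKIα KO/p21 KO array: it was 1.49 without replicate 1 and 0.52 without replicate 2, with 49 and 48 members above 0.

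**Figure D2:**
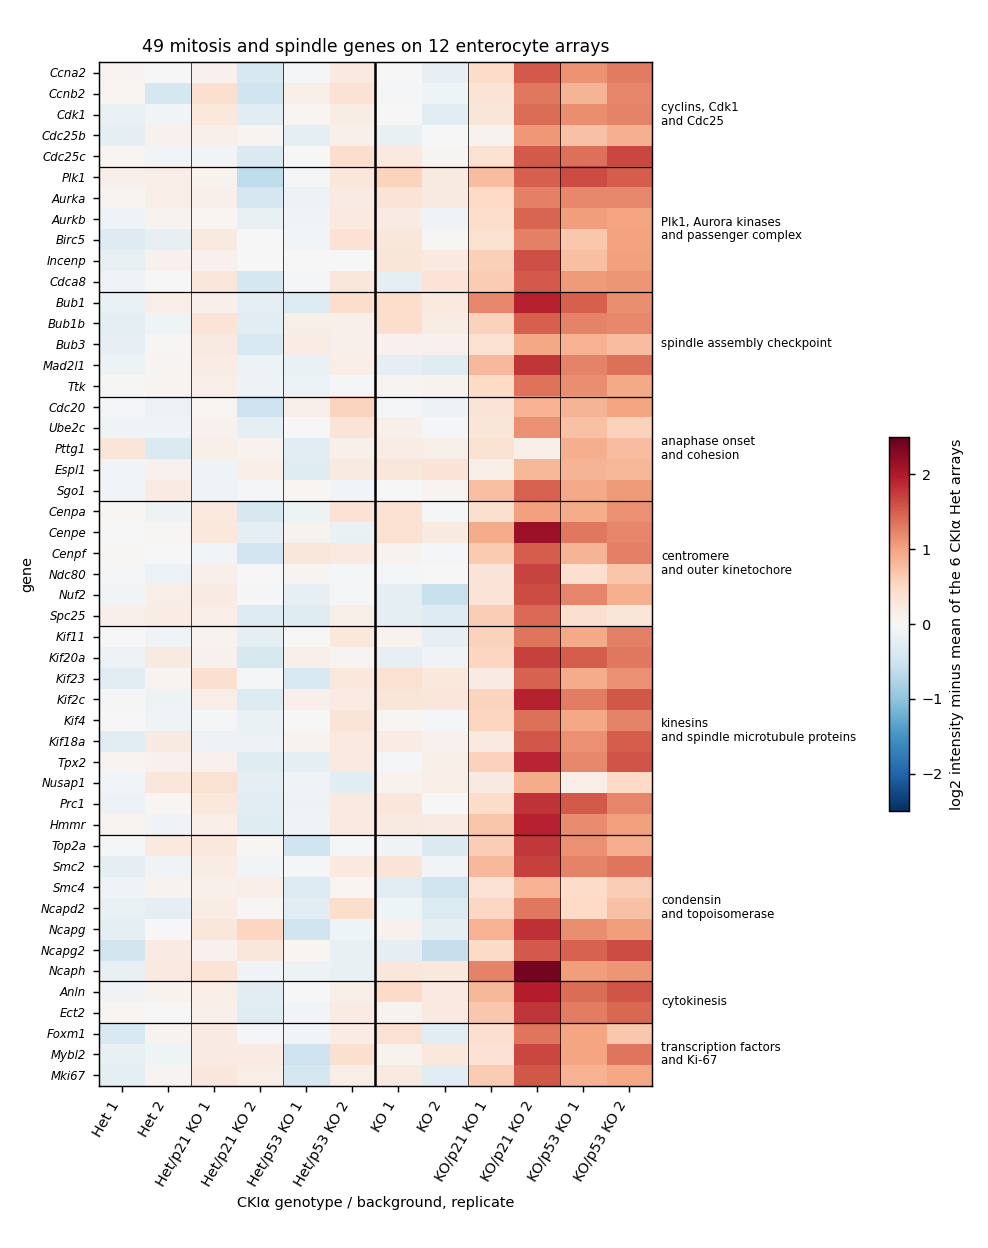
Log2 intensity of each of 49 mitosis genes (rows, grouped by role) on each of 12 arrays (columns, by CKIα genotype, background and replicate), as the difference from the mean of the 6 CKIα Het arrays, in colour. The CKIα KO/p21 KO and CKIα KO/p53 KO arrays on the right are the red columns, and among them replicate 2 of CKIα KO/p21 KO is the deepest, with a mean over the 49 genes of 7.97.

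The mean log2 intensity over the 49 genes shows the same order array by array. It was 6.40 and 6.51 on the CKIα Het arrays, 6.64 and 6.32 in CKIα Het/p21 KO, 6.39 and 6.66 in CKIα Het/p53 KO, and 6.60 and 6.48 in CKIα KO. In CKIα KO/p21 KO it was 7.01 and 7.97, and in CKIα KO/p53 KO 7.51 and 7.59. The 2 CKIα KO/p21 KO arrays therefore stood far apart: replicate 2 was higher than replicate 1 for 48 of the 49 members, by a median log2 of 0.96. In the 5 other groups the median difference between replicates was between -0.35 (CKIα Het/p21 KO) and 0.31 (CKIα Het/p53 KO).

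In the double knockouts, the arrays of most single members did not overlap the CKIα Het arrays of the same background. In CKIα KO/p53 KO both arrays exceeded both CKIα Het/p53 KO arrays for all 49 members, a pattern shown by 28.9% of all genes. In CKIα KO/p21 KO both arrays exceeded both of CKIα Het/p21 KO for 43 members, against 26.9% of all genes, and the exceptions were Ccnb2, Cdc25b, Pttg1, Espl1, Kif23 and Nusap1. Both CKIα KO/p53 KO arrays exceeded all 6 CKIα Het arrays of the 3 backgrounds for 48 members, all but Nusap1, against 22.0% of all genes, and both CKIα KO/p21 KO arrays did so for 38, against 15.8%.

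**Figure D3:**
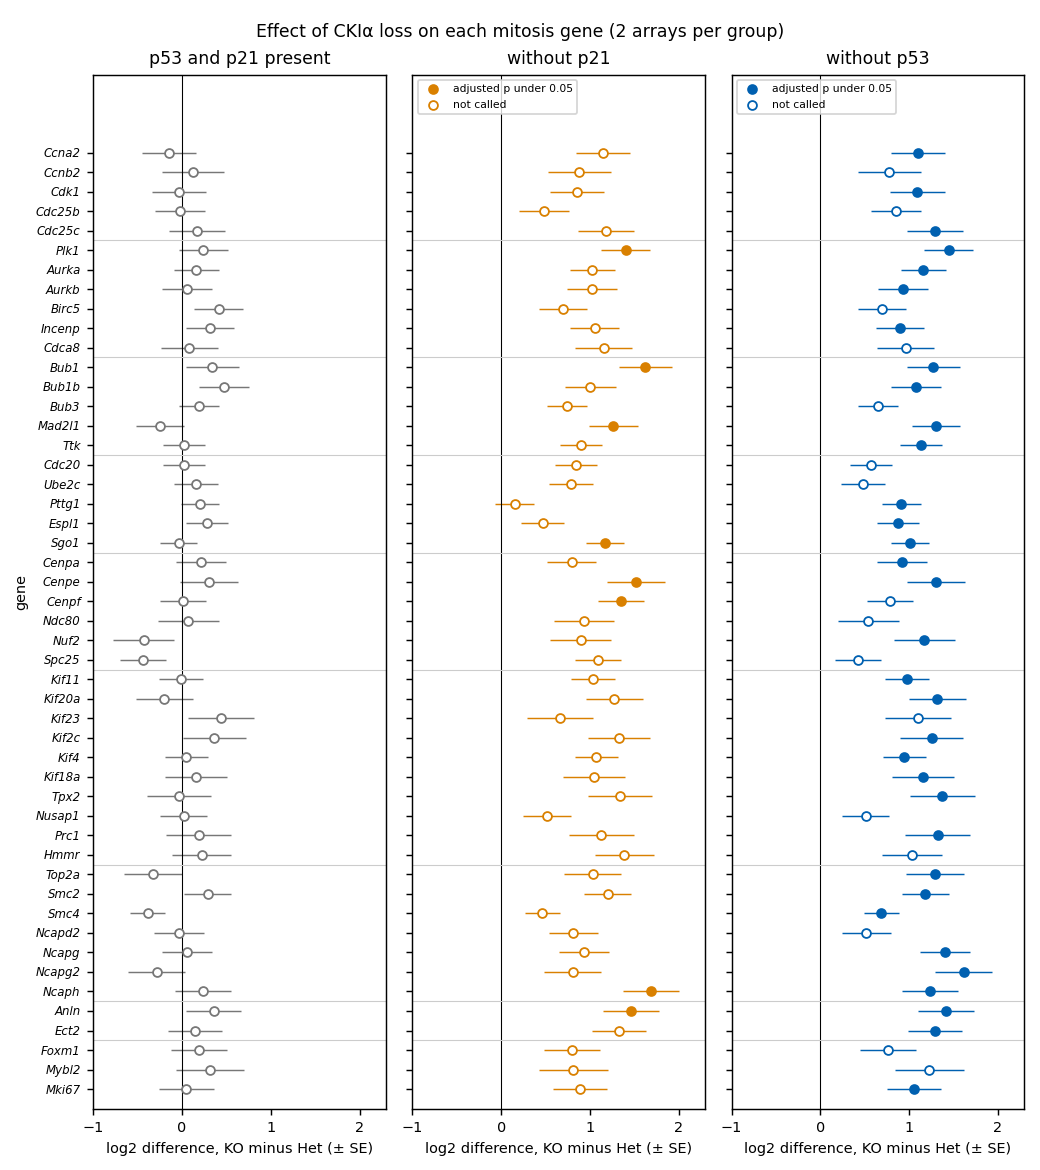
Log2 difference between CKIα KO and CKIα Het arrays (horizontal axis, with its SE) for each of 49 mitosis genes (vertical axis, grouped by role), with p53 and p21 present, without p21 and without p53, 2 arrays per group. Filled points passed at an adjusted p under 0.05: 0 in the left panel, 8 in the middle and 33 on the right, where all points lie above 0.

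Among the genes of Cdk1 and its partners, 0 of 5 measured members rose on CKIα loss without p21 and 3 rose without p53. Ccna2, the cyclin that drives S phase and entry into mitosis, had log2 values of 7.67 and 7.59 in CKIα Het, 7.59 and 7.38 in CKIα KO, 7.70 and 7.20 in CKIα Het/p21 KO, 8.06 and 9.14 in CKIα KO/p21 KO, 7.57 and 7.83 in CKIα Het/p53 KO and 8.72 and 8.90 in CKIα KO/p53 KO. Its CKIα KO/p53 KO and CKIα KO/p21 KO arrays were above all 8 others. The higher CKIα KO array (7.592) was in effect level with the lower CKIα Het array (7.594). It rose 2.15-fold without p53 (log2 1.10 ± 0.30, SE, n = 2 per group, limma adjusted p = 0.0348), and the difference without p21 was 1.15 ± 0.30 (adjusted p = 0.0717). Cdk1, the kinase that starts mitosis, had values of 8.18 and 8.26 in CKIα KO/p53 KO, 7.32 and 8.41 in CKIα KO/p21 KO, 7.01 and 6.73 in CKIα KO, 6.85 and 6.95 in CKIα Het, 7.28 and 6.74 in CKIα Het/p21 KO and 7.06 and 7.19 in CKIα Het/p53 KO. It rose 2.14-fold without p53 (adjusted p = 0.0366), with 0.86 ± 0.31 without p21. Ccnb2, a cyclin that binds Cdk1, had values of 7.86 and 7.38 in CKIα Het, 7.78 and 7.71 in CKIα KO, 8.22 and 7.32 in CKIα Het/p21 KO, 8.16 and 9.14 in CKIα KO/p21 KO, 7.96 and 8.19 in CKIα Het/p53 KO and 8.66 and 9.04 in CKIα KO/p53 KO. The higher CKIα Het/p21 KO array of Ccnb2 was above the lower CKIα KO/p21 KO array, and the gene passed in neither background. The phosphatase Cdc25c, which activates Cdk1, rose without p53 (log2 1.30 ± 0.32, adjusted p = 0.0238), and Cdc25b, of the same family, did not pass (0.85 ± 0.28, adjusted p = 0.0618).

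Of the Polo and Aurora kinases, which run the later steps, Plk1 had the largest difference both without p21 and without p53. Plk1, which acts in spindle assembly and in activating Cdk1, had values of 7.44 and 7.46 in CKIα Het, 7.85 and 7.52 in CKIα KO, 7.40 and 6.67 in CKIα Het/p21 KO, 8.08 and 8.79 in CKIα KO/p21 KO, 7.28 and 7.58 in CKIα Het/p53 KO and 8.93 and 8.82 in CKIα KO/p53 KO. It rose 2.64-fold without p21 (log2 1.40 ± 0.28, adjusted p = 0.0466) and 2.73-fold without p53 (1.45 ± 0.28, adjusted p = 0.0114), the smallest p of any member. Aurka, the Aurora kinase of the centrosomes, had values of 8.0 and 7.99 in CKIα KO/p53 KO, 7.29 and 8.07 in CKIα KO/p21 KO, 7.12 and 7.03 in CKIα KO, 6.86 and 6.97 in CKIα Het, 6.92 and 6.38 in CKIα Het/p21 KO and 6.66 and 7.01 in CKIα Het/p53 KO. Aurkb, the Aurora kinase of the chromosomal passenger complex, which corrects faulty attachments of chromosomes, had values of 6.85 and 7.05 in CKIα Het, 7.15 and 6.86 in CKIα KO, 7.0 and 6.77 in CKIα Het/p21 KO, 7.40 and 8.41 in CKIα KO/p21 KO, 6.87 and 7.20 in CKIα Het/p53 KO and 8.0 and 7.94 in CKIα KO/p53 KO. On the CKIα KO/p53 KO arrays both Aurora kinases were above all CKIα Het arrays. They rose without p53 (log2 1.16 ± 0.26 and 0.94 ± 0.28, adjusted p = 0.0173 and 0.0467), and neither passed without p21 (adjusted p = 0.0648 and 0.0783). Among the partners of Aurkb in that complex, Incenp rose without p53 (adjusted p = 0.0478), while Birc5 (survivin) and Cdca8 (borealin) did not pass (0.104 and 0.064). In this role 1 of 6 members rose without p21 and 4 without p53.

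The spindle assembly checkpoint delays anaphase until all chromosomes are attached. Of its 5 members, 2 rose without p21 and 4 without p53. Bub1, a checkpoint kinase at kinetochores, had values of 6.06 and 6.38 in CKIα Het, 6.66 and 6.47 in CKIα KO, 6.35 and 6.0 in CKIα Het/p21 KO, 7.43 and 8.16 in CKIα KO/p21 KO, 5.89 and 6.66 in CKIα Het/p53 KO and 7.72 and 7.38 in CKIα KO/p53 KO. All 4 double knockout arrays lay above the other 8. Bub1 rose 3.08-fold without p21 (log2 1.62 ± 0.30, adjusted p = 0.0434) and 2.42-fold without p53 (1.27 ± 0.30, adjusted p = 0.0212). Mad2l1, the inhibitor of the anaphase-promoting complex, had values of 9.17 and 9.31 in CKIα KO/p53 KO, 8.74 and 9.71 in CKIα KO/p21 KO, 7.68 and 7.62 in CKIα KO, 7.80 and 8.0 in CKIα Het, 8.11 and 7.81 in CKIα Het/p21 KO and 7.76 and 8.10 in CKIα Het/p53 KO. It rose in both backgrounds as well, by 1.26 ± 0.27 without p21 (adjusted p = 0.0497) and 1.31 ± 0.27 without p53 (adjusted p = 0.0145), while its CKIα KO arrays lay below both CKIα Het arrays. Bub1b (BubR1), another part of that inhibitor, had values of 6.34 and 6.48 in CKIα Het, 7.01 and 6.76 in CKIα KO, 6.92 and 6.29 in CKIα Het/p21 KO, 7.15 and 8.07 in CKIα KO/p21 KO, 6.73 and 6.71 in CKIα Het/p53 KO and 7.82 and 7.78 in CKIα KO/p53 KO. Bub3, which binds both Bub proteins, had values of 9.0 and 8.91 in CKIα KO/p53 KO, 8.53 and 9.10 in CKIα KO/p21 KO, 8.25 and 8.25 in CKIα KO, 7.94 and 8.18 in CKIα Het, 8.37 and 7.77 in CKIα Het/p21 KO and 8.34 and 8.28 in CKIα Het/p53 KO. Bub1b rose without p53 (log2 1.08 ± 0.28, adjusted p = 0.0299), as did Ttk, the kinase Mps1 that starts the checkpoint (1.13 ± 0.24, adjusted p = 0.015). Bub3 did not pass, though its arrays did not overlap (0.65 ± 0.23, adjusted p = 0.0723).

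Among the 5 genes of anaphase onset, 1 rose without p21 and 3 without p53, and several of the smallest differences were found here. Cdc20, which activates the anaphase-promoting complex, had values of 6.81 and 6.72 in CKIα Het, 6.83 and 6.74 in CKIα KO, 6.91 and 6.34 in CKIα Het/p21 KO, 7.19 and 7.74 in CKIα KO/p21 KO, 6.99 and 7.41 in CKIα Het/p53 KO and 7.71 and 7.84 in CKIα KO/p53 KO. Ube2c, the ubiquitin-conjugating enzyme of that complex, had values of 6.76 and 6.60 in CKIα KO/p53 KO, 6.33 and 7.17 in CKIα KO/p21 KO, 6.15 and 5.99 in CKIα KO, 5.92 and 5.91 in CKIα Het, 6.13 and 5.79 in CKIα Het/p21 KO and 6.04 and 6.36 in CKIα Het/p53 KO. Neither passed in either background, with log2 differences without p53 of 0.58 ± 0.24 and 0.48 ± 0.25 (adjusted p = 0.114 and 0.199). Pttg1, securin, which holds separase inactive, had values of 6.65 and 5.98 in CKIα Het, 6.54 and 6.49 in CKIα KO, 6.49 and 6.43 in CKIα Het/p21 KO, 6.73 and 6.49 in CKIα KO/p21 KO, 6.07 and 6.48 in CKIα Het/p53 KO and 7.25 and 7.13 in CKIα KO/p53 KO. Its CKIα KO/p53 KO arrays lay above all others, while the CKIα KO/p21 KO arrays overlapped the heterozygous ones. Pttg1 rose without p53 (log2 0.91 ± 0.22, adjusted p = 0.0222) and had the smallest difference of any member without p21 (0.15 ± 0.22, adjusted p = 0.759). Espl1, separase, which cuts the cohesin that joins sister chromatids, had values of 6.51 and 6.49 in CKIα KO/p53 KO, 5.81 and 6.50 in CKIα KO/p21 KO, 5.95 and 5.98 in CKIα KO, 5.60 and 5.77 in CKIα Het, 5.56 and 5.83 in CKIα Het/p21 KO and 5.36 and 5.89 in CKIα Het/p53 KO. It rose without p53 (0.87 ± 0.24, adjusted p = 0.0331) and not without p21 (0.47 ± 0.24, adjusted p = 0.276). Sgo1, shugoshin, which protects centromeric cohesin, rose in both backgrounds (1.17 ± 0.21 without p21 and 1.01 ± 0.21 without p53, adjusted p = 0.0418 and 0.0148), and its adjusted p without p21 was the lowest of the members.

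At the centromere and outer kinetochore, where spindle microtubules attach, 2 of 6 members rose without p21 and 3 without p53. Cenpa, the histone H3 variant that marks centromeres, had values of 6.95 and 6.77 in CKIα Het, 7.28 and 6.87 in CKIα KO, 7.13 and 6.50 in CKIα Het/p21 KO, 7.30 and 7.92 in CKIα KO/p21 KO, 6.77 and 7.26 in CKIα Het/p53 KO and 7.82 and 8.04 in CKIα KO/p53 KO. Cenpe, a kinetochore motor that moves chromosomes to the spindle equator, had values of 7.12 and 7.03 in CKIα KO/p53 KO, 6.74 and 7.97 in CKIα KO/p21 KO, 6.20 and 6.05 in CKIα KO, 5.80 and 5.84 in CKIα Het, 6.09 and 5.59 in CKIα Het/p21 KO and 5.91 and 5.65 in CKIα Het/p53 KO. Cenpe was highest on CKIα KO/p21 KO replicate 2, and rose 2.86-fold without p21 (log2 1.52 ± 0.33, adjusted p = 0.0497) and 2.46-fold without p53 (1.30 ± 0.33, adjusted p = 0.026). Cenpf, a large protein of the outer kinetochore, had values of 5.81 and 5.77 in CKIα Het, 5.88 and 5.73 in CKIα KO, 5.73 and 5.31 in CKIα Het/p21 KO, 6.45 and 7.29 in CKIα KO/p21 KO, 6.06 and 6.03 in CKIα Het/p53 KO and 6.64 and 7.04 in CKIα KO/p53 KO. It was the only member called without p21 (1.35 ± 0.26, adjusted p = 0.0447) and not without p53 (0.79 ± 0.26, adjusted p = 0.0609). The NDC80 complex, which grips the microtubule, was mixed. Nuf2 had values of 7.87 and 7.55 in CKIα KO/p53 KO, 6.98 and 8.28 in CKIα KO/p21 KO, 6.43 and 6.10 in CKIα KO, 6.58 and 6.82 in CKIα Het, 6.86 and 6.60 in CKIα Het/p21 KO and 6.44 and 6.63 in CKIα Het/p53 KO, and rose without p53 (1.17 ± 0.34, adjusted p = 0.0429). Spc25 had values of 6.27 and 6.32 in CKIα Het, 5.89 and 5.81 in CKIα KO, 6.31 and 5.81 in CKIα Het/p21 KO, 6.75 and 7.55 in CKIα KO/p21 KO, 5.84 and 6.29 in CKIα Het/p53 KO and 6.53 and 6.45 in CKIα KO/p53 KO. Its difference without p53, 0.43 ± 0.26, was the smallest of any member (adjusted p = 0.277). The arrays of both genes in CKIα KO were below both CKIα Het arrays. Ndc80 itself did not pass without p53 (0.54 ± 0.34, adjusted p = 0.285).

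Of the 10 kinesins and spindle microtubule proteins, 0 rose without p21 and 7 without p53. Kif11 (Eg5), the motor that pushes the spindle poles apart, had values of 6.96 and 6.88 in CKIα Het, 7.06 and 6.76 in CKIα KO, 7.07 and 6.72 in CKIα Het/p21 KO, 7.55 and 8.30 in CKIα KO/p21 KO, 6.96 and 7.24 in CKIα Het/p53 KO and 7.93 and 8.22 in CKIα KO/p53 KO. Kif20a, a motor of the central spindle, had values of 7.66 and 7.48 in CKIα KO/p53 KO, 6.70 and 7.86 in CKIα KO/p21 KO, 5.94 and 6.08 in CKIα KO, 6.03 and 6.39 in CKIα Het, 6.26 and 5.75 in CKIα Het/p21 KO and 6.28 and 6.23 in CKIα Het/p53 KO. Both rose without p53 (log2 0.97 ± 0.25 and 1.32 ± 0.32, adjusted p = 0.0269 and 0.0235), with differences of similar size without p21 that did not pass (1.03 ± 0.25 and 1.28 ± 0.32, adjusted p = 0.0599 and 0.0651). Kif23, a motor of the centralspindlin complex needed for cytokinesis, had values of 7.0 and 7.36 in CKIα Het, 7.68 and 7.56 in CKIα KO, 7.69 and 7.24 in CKIα Het/p21 KO, 7.50 and 8.76 in CKIα KO/p21 KO, 6.90 and 7.56 in CKIα Het/p53 KO and 8.23 and 8.44 in CKIα KO/p53 KO. The higher CKIα Het/p21 KO array of Kif23 was above the lower CKIα KO/p21 KO array, and it passed in neither background. Tpx2, which activates Aurka at the spindle, rose without p53 by 1.38 ± 0.36 (adjusted p = 0.0303). Prc1, Kif2c, Kif4 and Kif18a rose there too, with adjusted p between 0.0276 and 0.0471. Nusap1, a microtubule-bundling protein, had values of 5.84 and 6.17 in CKIα KO/p53 KO, 5.89 and 6.60 in CKIα KO/p21 KO, 5.75 and 5.83 in CKIα KO, 5.60 and 5.94 in CKIα Het, 6.04 and 5.42 in CKIα Het/p21 KO and 5.59 and 5.40 in CKIα Het/p53 KO. It was the member whose CKIα KO/p53 KO arrays did not clear all CKIα Het arrays, and with Hmmr, another spindle protein, it passed in neither background (adjusted p without p53 = 0.2 and 0.0591).

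Condensin compacts chromosomes for division, and topoisomerase IIα untangles them. Here 1 of 7 members rose without p21 and 6 without p53. Top2a, the topoisomerase, had values of 8.29 and 8.56 in CKIα Het, 8.24 and 7.97 in CKIα KO, 8.59 and 8.38 in CKIα Het/p21 KO, 8.94 and 10.09 in CKIα KO/p21 KO, 7.82 and 8.30 in CKIα Het/p53 KO and 9.47 and 9.24 in CKIα KO/p53 KO. The other probe set of Top2a was dim, with a mean of 3.01 against 8.66, and was not used. Smc2, a core subunit of both condensins, had values of 7.98 and 8.09 in CKIα KO/p53 KO, 7.57 and 8.45 in CKIα KO/p21 KO, 7.06 and 6.68 in CKIα KO, 6.50 and 6.66 in CKIα Het, 6.94 and 6.67 in CKIα Het/p21 KO and 6.71 and 7.0 in CKIα Het/p53 KO. Smc4, its partner, had values of 7.96 and 8.14 in CKIα Het, 7.77 and 7.56 in CKIα KO, 8.18 and 8.22 in CKIα Het/p21 KO, 8.41 and 8.92 in CKIα KO/p21 KO, 7.70 and 8.09 in CKIα Het/p53 KO and 8.50 and 8.67 in CKIα KO/p53 KO. All of these rose without p53 (log2 1.29 ± 0.32, 1.18 ± 0.26 and 0.69 ± 0.20, adjusted p = 0.0253, 0.0181 and 0.0398). Smc4 and Top2a were lower on both CKIα KO than on both CKIα Het arrays. Ncaph, a subunit of condensin I, had values of 7.44 and 7.50 in CKIα KO/p53 KO, 7.63 and 8.78 in CKIα KO/p21 KO, 6.67 and 6.65 in CKIα KO, 6.20 and 6.64 in CKIα Het, 6.74 and 6.30 in CKIα Het/p21 KO and 6.27 and 6.21 in CKIα Het/p53 KO. It had the largest difference of any member without p21, 3.22-fold (log2 1.69 ± 0.32, adjusted p = 0.0434), and rose 2.35-fold without p53. Ncapg2, a subunit of condensin II, had values of 5.72 and 6.38 in CKIα Het, 5.94 and 5.59 in CKIα KO, 6.29 and 6.45 in CKIα Het/p21 KO, 6.65 and 7.71 in CKIα KO/p21 KO, 6.23 and 6.0 in CKIα Het/p53 KO and 7.65 and 7.82 in CKIα KO/p53 KO. It was largest without p53, 3.07-fold (log2 1.62 ± 0.32, adjusted p = 0.0127), and did not pass without p21 (0.81 ± 0.32, adjusted p = 0.17). Ncapg of condensin I rose without p53 (1.41 ± 0.28, adjusted p = 0.0129), and Ncapd2 did not pass (0.52 ± 0.28, adjusted p = 0.216).

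Both cytokinesis genes rose without p53. Anln, anillin, the scaffold of the contractile ring, had values of 5.81 and 5.99 in CKIα Het, 6.39 and 6.12 in CKIα KO, 6.07 and 5.62 in CKIα Het/p21 KO, 6.74 and 7.88 in CKIα KO/p21 KO, 5.89 and 6.05 in CKIα Het/p53 KO and 7.31 and 7.47 in CKIα KO/p53 KO. Anln rose 2.76-fold without p21 (log2 1.46 ± 0.31, adjusted p = 0.0485) and 2.67-fold without p53 (1.42 ± 0.31, adjusted p = 0.017). Ect2, the exchange factor that activates RhoA at the ring, had values of 8.92 and 9.08 in CKIα KO/p53 KO, 8.31 and 9.43 in CKIα KO/p21 KO, 7.73 and 7.87 in CKIα KO, 7.68 and 7.63 in CKIα Het, 7.75 and 7.32 in CKIα Het/p21 KO and 7.57 and 7.85 in CKIα Het/p53 KO. It rose without p53 (1.29 ± 0.30, adjusted p = 0.0212) and was at 1.33 ± 0.30 without p21 (adjusted p = 0.055).

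Of the transcription factors of the programme and Ki-67, 3 genes in all, 0 rose without p21 and 1 without p53. Foxm1 had values of 4.91 and 5.37 in CKIα Het, 5.65 and 5.0 in CKIα KO, 5.48 and 5.23 in CKIα Het/p21 KO, 5.69 and 6.61 in CKIα KO/p21 KO, 5.21 and 5.47 in CKIα Het/p53 KO and 6.26 and 5.95 in CKIα KO/p53 KO. Mybl2, the gene of B-Myb, had values of 7.46 and 7.80 in CKIα KO/p53 KO, 6.83 and 8.13 in CKIα KO/p21 KO, 6.54 and 6.72 in CKIα KO, 6.27 and 6.36 in CKIα Het, 6.66 and 6.67 in CKIα Het/p21 KO and 5.94 and 6.87 in CKIα Het/p53 KO. In CKIα KO/p53 KO both arrays of each were above all CKIα Het arrays. Neither passed without p53 (log2 0.77 ± 0.32 and 1.23 ± 0.39, adjusted p = 0.117 and 0.0545) or without p21 (0.167 and 0.245). Mki67, the Ki-67 antigen that coats mitotic chromosomes and is used to mark cycling cells, had values of 7.56 and 7.84 in CKIα Het, 8.0 and 7.50 in CKIα KO, 8.06 and 7.91 in CKIα Het/p21 KO, 8.41 and 9.33 in CKIα KO/p21 KO, 7.33 and 7.95 in CKIα Het/p53 KO and 8.64 and 8.74 in CKIα KO/p53 KO. Mki67 rose without p53 (1.05 ± 0.31, adjusted p = 0.0416) and was at 0.88 ± 0.31 without p21 (adjusted p = 0.125).

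Of the 8 genes called without p21, 7 were also called without p53: Plk1, Bub1, Mad2l1, Sgo1, Cenpe, Ncaph and Anln. Cenpf was called without p21 only, 26 members without p53 only and 15 in neither. At an unadjusted p under 0.05, 43 members were higher in each of these comparisons, beside 3881 and 5773 of the 16721 genes in either direction without p21 and without p53. The calls without p21 hung on single arrays. More were called without CKIα KO/p21 KO replicate 1, both among the members and among all genes, and fewer members without either CKIα KO array. None was left when any other single array was left out. Without p53, 0 members were called without CKIα Het/p53 KO replicate 1 or CKIα KO/p53 KO replicate 2, 3 and 4 without the other array of each of those groups, and 21 without either CKIα Het array.

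Averaged over the 3 backgrounds, 41 of 49 members (83.7%) rose on CKIα loss, among 15.5% of all genes, and 0 fell, among 8.96%. The median log2 difference was 0.71, beside -0.03 over all genes. Those that did not pass were Ccnb2, Cdc25b, Ndc80, Nuf2, Spc25, Nusap1, Smc4 and Ncapd2. Since the average holds the comparison with p53 and p21 present, in which no member passed, it does not stand for each background. Left-out arrays gave counts of 27 without CKIα Het replicate 1 or CKIα Het/p21 KO replicate 2, and 26 without CKIα Het/p53 KO replicate 1.

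With p53 and p21 present, limma called 0 of 49 members on CKIα loss, among 0.0239% of genes called higher, and 0 had an unadjusted p under 0.05, beside 1520 of all genes. The adjusted p lay between 0.621 and 0.997. The largest differences were those of Bub1b (0.48 ± 0.28), Kif23 (0.44 ± 0.37) and Birc5, an inhibitor of apoptosis that serves the passenger complex in mitosis (0.41 ± 0.27). Birc5 had values of 5.80 and 5.92 in CKIα Het, 6.40 and 6.14 in CKIα KO, 6.37 and 6.10 in CKIα Het/p21 KO, 6.49 and 7.38 in CKIα KO/p21 KO, 6.04 and 6.48 in CKIα Het/p53 KO and 6.79 and 7.12 in CKIα KO/p53 KO. The lowest were those of Spc25 (-0.44 ± 0.26), Nuf2 (-0.43 ± 0.34) and Smc4 (-0.39 ± 0.20). Both CKIα KO arrays lay above both CKIα Het arrays for 20 members, against 22.3% of all genes, and below both for 6 (Ccna2, Mad2l1, Nuf2, Spc25, Top2a and Smc4), against 16.8%. They exceeded all 6 CKIα Het arrays for 5 members (Aurka, Incenp, Espl1, Kif2c and Anln), against 7.91% of all genes. The 95% interval of the difference ended below a log2 of 1 for 40 of the 49 members, and lay within -1 and 1 for 36. A doubling was thus outside the interval for most members but not for all: the interval of Kif23 reached 1.26.

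Whether the effect of CKIα loss differed between backgrounds was tested as an interaction. The effect was larger without p21 than with both genes for 48 of 49 members (median log2 0.91, beside -0.01 over all genes). Without p53 it was larger for all 49 (median 0.91, beside -0.06). All members were measured on the same arrays, so their number does not stand for repeats of the test. The median for p21 was 1.44 without CKIα KO/p21 KO replicate 1 and 0.46 without replicate 2. No member passed: limma called 0 for p21, among 0% of all genes called higher, and 0 for p53, among 0.0120%. At an unadjusted p under 0.05, 27 and 23 members had a larger effect, beside 1359 and 2485 of all genes in either direction. The largest were those of Spc25 (1.53 ± 0.37, adjusted p = 0.568), Mad2l1 (1.51 ± 0.38, adjusted p = 0.568) and Kif20a (1.47 ± 0.45, adjusted p = 0.615) for p21, and Ncapg2 (1.90 ± 0.45, adjusted p = 0.224), Top2a (1.62 ± 0.46, adjusted p = 0.24) and Nuf2 (1.61 ± 0.49, adjusted p = 0.249) for p53. Without CKIα KO/p21 KO replicate 1, calls appeared for p21, both among the members and among all genes. The same held for p53 without either CKIα KO/p21 KO array. These comparisons share the CKIα KO and CKIα Het arrays.

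The double knockouts were also set directly against CKIα KO. For loss of p53 in CKIα KO all 49 members had both arrays above both CKIα KO arrays, against 23.8% of all genes, and the median log2 difference was 0.98, beside -0.03 over all genes. Of these, 2 rose (4.08%), among 0.466% of all genes, and 0 fell, among 0.227%: Ncapg2, 3.91-fold (log2 1.97 ± 0.32, adjusted p = 0.0458), and Mad2l1, 3.00-fold (1.59 ± 0.27, adjusted p = 0.0458). The shares over all genes given here are those of the adjusted calls and of the arrays that did not overlap. Both calls were lost when any single array outside CKIα KO/p21 KO was left out. The median then stayed between 0.95 and 1.08. For loss of p21 in CKIα KO, both arrays exceeded both CKIα KO arrays for 46 members, all but Pttg1, Espl1 and Kif23, against 16.2% of all genes, with a median of 1.00. That median was 1.48 without CKIα KO/p21 KO replicate 1 and 0.45 without replicate 2. Here limma called 0, among 0.0239% of genes called higher, with 42 at an unadjusted p under 0.05, beside 2005 of all genes. Without CKIα KO/p21 KO replicate 1 more were called, both among the members and among all genes.

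In heterozygous gut, no member passed for loss of p53 or of p21. For p21 in CKIα Het the median log2 difference was 0.01 (range -0.42 to 0.53), and limma called 0 members, among 0.00598% of all genes. For p53 in CKIα Het it was 0.07 (range -0.37 to 0.45), with 0 members called, among 0% of all genes. No member had an unadjusted p under 0.05 in either, beside 837 and 941 of all genes. The 95% intervals lay within log2 -1 and 1 for 44 and 45 of the 49 members.

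Between the double knockouts no member passed. The median of CKIα KO/p53 KO minus CKIα KO/p21 KO was 0.13, beside 0.01 over all genes. It turned to -0.43 without CKIα KO/p21 KO replicate 1 (5 of 49 members above 0), and was 0.55 without replicate 2 (47 above 0) and 0.01 without CKIα KO/p53 KO replicate 2. With all arrays limma called 0 members, among 0.114% of all genes called higher. At an unadjusted p under 0.05 there were 3, beside 1507 of all genes: Pttg1 was at 0.58 ± 0.22 (adjusted p = 0.456), and Spc25 and Ncaph at -0.66 ± 0.26 and -0.74 ± 0.32 (adjusted p = 0.48 and 0.528). The 95% interval was within log2 -1 and 1 for 35 members, so that a 2-fold difference either way was outside it for those and inside it for the rest. Without CKIα KO/p21 KO replicate 1, 1 member, Ndc80, was called lower.

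Beyond the 50 genes, 85 other mitosis genes of a wider list were tested, and 5 rose without p21 and 38 without p53, with 0 lower in each. Their median log2 differences were 0.68 and 0.76, and 0.04 with p53 and p21 present. The smallest p without p53 belonged to Shcbp1 (1.55 ± 0.25), Cks1b, the small partner of Cdk1 (1.58 ± 0.26), Cenpi of the inner kinetochore (1.42 ± 0.24) and Bora, an activator of Aurka (1.31 ± 0.24). All 4 rose, with adjusted p between 0.00803 and 0.0103. Without p21, Psrc1, a spindle protein, rose 8.37-fold (3.07 ± 0.32, adjusted p = 0.00928) and Gtse1, a microtubule-bound protein that acts on p53, 4.68-fold (2.23 ± 0.28, adjusted p = 0.018). Ckap2 and Cenpi rose there too (adjusted p = 0.0434 and 0.0481). Psrc1 and Gtse1 are both known as targets of p53.

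Psrc1 followed another pattern than the 49 members. It had log2 values of 5.25 and 4.94 in CKIα Het, 6.08 and 6.82 in CKIα KO, 5.08 and 5.10 in CKIα Het/p21 KO, 7.64 and 8.67 in CKIα KO/p21 KO, 4.87 and 5.05 in CKIα Het/p53 KO and 5.06 and 4.95 in CKIα KO/p53 KO. Its CKIα KO arrays lay above both CKIα Het arrays, and its CKIα KO/p53 KO arrays were at the level of the heterozygous ones. Gtse1 had values of 5.82 and 5.82 in CKIα KO/p53 KO, 7.23 and 7.78 in CKIα KO/p21 KO, 5.62 and 6.24 in CKIα KO, 4.88 and 5.63 in CKIα Het, 5.35 and 5.20 in CKIα Het/p21 KO and 5.19 and 5.44 in CKIα Het/p53 KO. On the CKIα KO/p53 KO arrays Psrc1 and Gtse1 were lower than on the CKIα KO/p21 KO arrays (log2 -3.15 ± 0.32 and -1.69 ± 0.28, adjusted p = 0.00424 and 0.0465), and both of them are named here after their values were seen as the 2 genes of that wider list called between the double knockouts.

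Of the 30 genes of S phase and replication licensing, 2 rose without p21 and 15 without p53, with median differences of 0.81 and 1.00, and -0.07 with p53 and p21 present. Mcm2 and Fen1, of the replicative helicase and of Okazaki fragment processing, rose without p21 (1.29 ± 0.21 and 1.22 ± 0.25), and Rrm1 and Rfc4 came next and did not pass (adjusted p = 0.0565 and 0.0636). Mcm3, Mcm7, Rrm1 and Mcm10 led without p53 (1.66 ± 0.30, 1.46 ± 0.28, 1.67 ± 0.32 and 1.22 ± 0.24, adjusted p between 0.0100 and 0.0120).

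The MuvB, DREAM and E2F factors, which regulate the mitosis genes, stayed closer to 0: of 18, 1 rose without p21, and without p53 1 rose and 1 fell. Their median differences were 0.18 and 0.40. Without p21, Mybl1 (A-Myb) rose 3.17-fold (1.66 ± 0.25, adjusted p = 0.0268), and Rbbp4, Tfdp1 and Rbl2 did not pass (adjusted p = 0.117, 0.117 and 0.129). Without p53, E2f3 rose 1.92-fold (0.94 ± 0.14, adjusted p = 0.00763) and Rb1, the retinoblastoma gene, fell 2.56-fold (-1.36 ± 0.22, adjusted p = 0.00783), while E2f1 and Lin54 did not pass (adjusted p = 0.0609 and 0.0691).

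**Figure D4:**
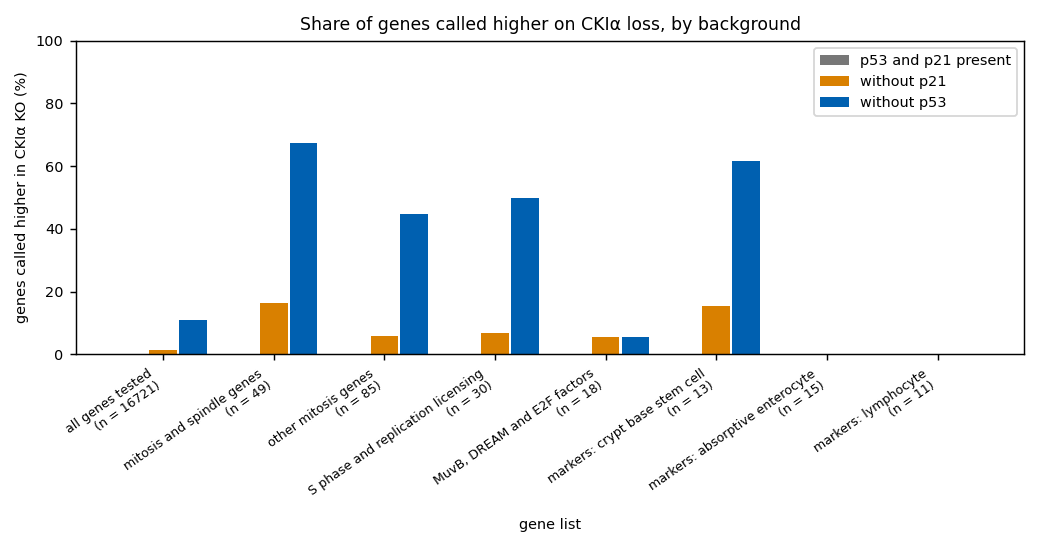
Share of genes called higher (%, vertical axis) on CKIα loss in each background, for all 16721 genes tested and for lists of genes (horizontal axis, with the number tested). The mitosis and spindle genes stand at 16.3% without p21 and 67.3% without p53, the crypt base markers at 15.4% and 61.5%, and all genes at 1.46% and 11.0%; with p53 and p21 present the bars of these lists are at 0.

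Markers of several cell types also differed between the groups, though not always where the mitosis genes did. In bulk samples such as these, fewer cells of a type and less RNA per cell cannot be told apart. Of 13 crypt base stem cell markers, 2 rose without p21 and 8 without p53, led by Axin2 and Rnf43, feedback genes of Wnt signalling, and 0 fell in either. The list went both ways: Lgr5, the receptor that defines these stem cells, was at -0.69 ± 0.31 without p21 and 0.91 ± 0.31 without p53 (adjusted p = 0.223 and 0.069). Olfm4, a secreted protein of the same cells, was at -0.70 ± 0.61 and -1.58 ± 0.61 (adjusted p = 0.557 and 0.0973). Their mean level was 7.40 and 8.04 on the CKIα KO/p21 KO arrays, 8.13 and 7.80 in CKIα KO/p53 KO, and between 6.52 and 7.03 on the 6 CKIα Het arrays. Of 15 absorptive enterocyte markers, 0 passed without p21 and 7 fell without p53: Enpep, Cubn, Lct, Sis, Treh, Vil1 and Slc5a1. Their mean level was between 11.92 and 12.37 on the CKIα Het arrays and 11.05 and 10.73 on those of CKIα KO/p53 KO. It was 12.03 on CKIα KO/p21 KO replicate 1 and 10.77 on replicate 2, the array that was the higher one for 48 mitosis genes. Single enterocyte markers were much lower on some arrays: on CKIα KO/p53 KO replicate 2, Treh was at 6.38, Lct at 6.84 and Cubn at 7.16, and on CKIα KO/p21 KO replicate 2, Treh was at 6.44. Their part in the differences of the mitosis genes was not tested.

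Secretory markers were lower: without p21 and without p53, 2 and 5 of 7 goblet cell markers fell, and 4 and 7 of 10 enteroendocrine ones. Among 6 Paneth cell markers, 0 and 1 (Mmp7) rose. Lymphocyte genes were present on all arrays, at a mean level of 5.99 to 8.10 over 11 markers, and none of them passed in either comparison, though all 11 had an unadjusted p under 0.05 without p21, with a median difference of -1.48. On the CKIα KO/p21 KO arrays that level was 7.0 and 5.99, and on the CKIα Het/p21 KO arrays 7.52 and 8.10. Of 7 myeloid markers tested, 0 rose without p21 and 2 (Cd68 and Cd14) without p53. Of 9 fibroblast and smooth muscle markers 0 passed in either, with mean levels of 6.15 and 5.12 in CKIα KO/p21 KO and 5.91 and 6.75 in CKIα Het/p21 KO. On CKIα Het/p21 KO replicate 2 the smooth muscle genes Acta2 and Myh11 were at 9.66 and 7.71, against 5.11 and 4.38 on replicate 1, so that this control array stood apart. Next came CKIα KO/p21 KO replicate 1, with 7.55 and 5.07, against 5.29 and 4.29 on its replicate 2. Of 5 endothelial markers 1 (Eng) fell without p53. The only red blood cell marker tested, Alas2, did not pass. With p53 and p21 present, the goblet cell list had mean levels of 10.44 and 9.96 in CKIα KO, against 10.93 and 10.78 in CKIα Het. The enteroendocrine list was at 6.77 and 6.18, against 7.39 and 7.29. The crypt base list overlapped, at 6.77 and 7.45 against 6.92 and 6.99. On the same arrays the mitosis genes were at 6.60 and 6.48, against 6.40 and 6.51. Whether these cells had a part in the result was not tested.

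**Figure D5:**
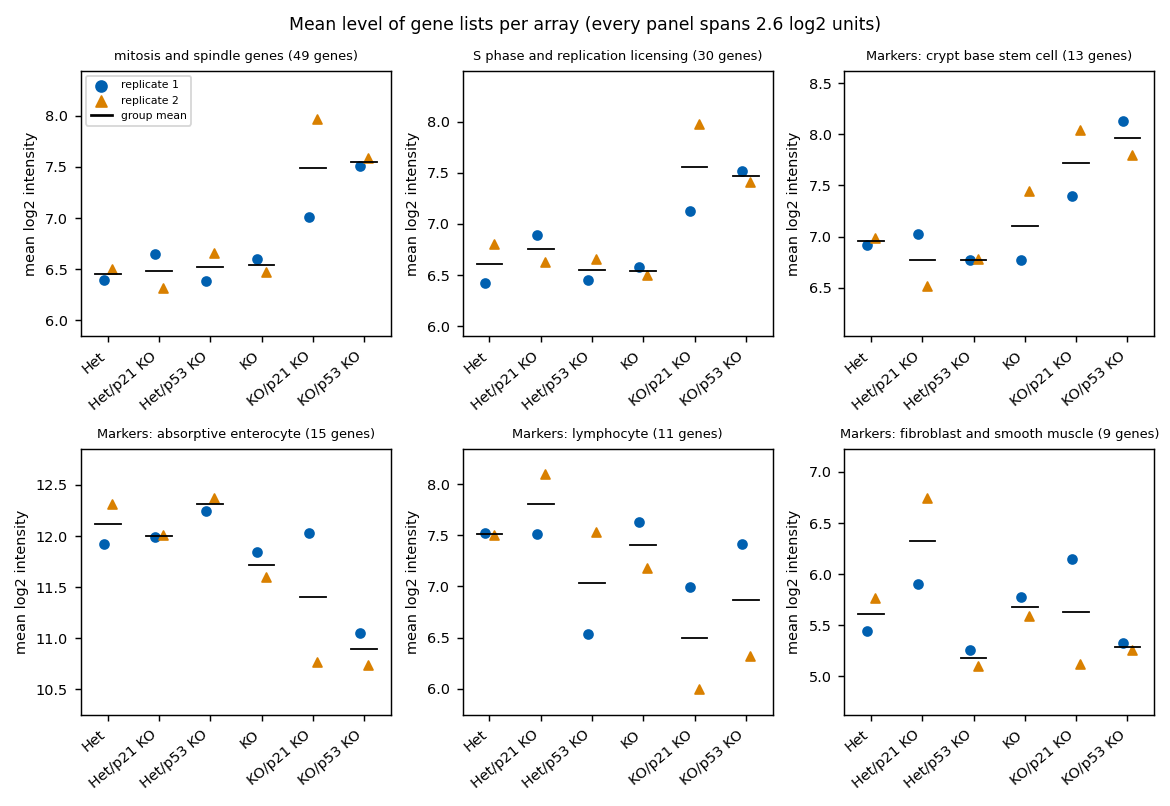
Mean log2 intensity of 6 gene lists (vertical axis, each panel spanning the same number of log2 units) on each of the 12 arrays (points, circles for replicate 1 and triangles for replicate 2) by group (horizontal axis), with the group mean as a bar. The mitosis, S phase and crypt base lists are higher in both double knockouts than in the CKIα Het arrays of the same background, the absorptive enterocyte list is lower on both CKIα KO/p53 KO arrays and on 1 of the 2 CKIα KO/p21 KO arrays, and the lymphocyte list is spread within groups.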

How the data were processed

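Total RNA of mouse enterocytes was extracted with Trizol, labelled and hybridized to Affymetrix arrays, per the labels' protocols. The deposited values are log2 intensities that the authors extracted with Affymetrix Expression Console 1.1 by RMA Sketch and normalized by the median, per the labels' protocols; the base of the logarithm is not stated and was taken from the values. Of 35556 probe sets, 21789 carried 1 gene symbol in the platform annotation, 1621 several and 12146 none; the first kind entered the fit. Genes at or below the 25th percentile of the array on more than 10 of 12 arrays were left out.

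The 12 arrays were fitted with limma 3.58.1 in R 4.3.3, with 1 mean for each of 6 groups and 6 residual degrees of freedom. In 11 comparisons, two-sided moderated p-values were adjusted by Benjamini and Hochberg over 16721 genes. Intervals are 95% intervals of that fit. The number of arrays limits the precision, and p-values measure the spread between these arrays. The computation was tested on simulated data with independent noise for each gene. Those data held no shift shared by many genes of an array, such as that between the CKIα KO/p21 KO arrays. They therefore do not show how the fit deals with such a shift. Replicate numbers occur in all groups, but the deviations of same-numbered arrays correlated between -0.162 and 0.248 over 15 pairs of groups, 5 of them above 0.1. The numbers were not taken to pair the arrays in the main fit. Xist did split by number, so a factor shared by number can remain in the spread. A fit with the number as a block was therefore also run.

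The members and all lists of genes were chosen with earlier results of these data known. Named with all values were the leading members of each role, the 3 largest and 3 smallest differences in each CKIα comparison, members that passed elsewhere, and up to 4 genes of each of 3 further lists per comparison without p21 or p53. Results were recomputed with the mean of a gene's probe sets, with the replicate number as a block, with an intensity trend, after quantile normalization, with dim genes kept, and with each array left out in turn. Sequences are RefSeq's (GRCm38.p6).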

Additional observations from a re-analysis of the deposited data

Results flagged for a closer look

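1 array entered no comparison: its title gives CKIα KO/p53 KO, replicate 3, but the other labels give only a knockout of CKI. It stood out because its mitosis genes were above the level of the control arrays. Its mean log2 intensity over the 49 genes was 6.86, beside 6.32 to 6.66 on the 6 CKIα Het arrays. On it 34 of 49 members were above all 6 CKIα Het arrays and 41 were above both CKIα KO arrays, and 0 reached the lower of the CKIα KO/p53 KO arrays. These values do not assign the array to a group.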

How the results depend on the processing

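No called member changed direction under any alternative. Without p21, 8 members were called, and 3 with no filter on dim genes, 4 after a further quantile normalization and 0 to 47 with each array left out in turn. Without p53, 33 were called, 21 after quantile normalization and 0 to 42 with an array left out. The mean over the backgrounds gave 41, and 26 to 48. The interactions gave 0 each, and 0 to 18 for p21 and 0 to 8 for p53. Loss of p21 in CKIα KO gave 0, and 0 to 42. Loss of p53 in CKIα KO gave 2, and 0 to 39. The double knockouts gave 0, and 0 to 1. With the replicate number as a block, 5 members were called for loss of p53 in CKIα KO, and 6 without p21, 32 without p53 and 41 for the mean; the labels pair the arrays by number only, and for 6 of 6 groups the closest other group deviated the same way by number, a hint from the data and not from the design. That number also splits the arrays by Xist.

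Over all genes, the count without p21 was 330, and 163 with no filter and 0 to 2777 with an array left out; for loss of p53 in CKIα KO it was 116, and 338 with the block. Of values that were not called, the sign turned for 20 members with p53 and p21 present, 1 without p21, 3 for loss of p21 in CKIα KO and 42 between the double knockouts. With 2 arrays per group, a left-out array leaves a lone array that is assumed to vary like the other groups. All 49 measured members passed the filter on dim genes; whether signal limited the calls was not tested.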
